A study of Homo sapiens with 9 samples.

Results

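The comparison described here set 2 HepG2 knockdown groups, knockdown1 and knockdown2, directly against each other. Its arrays were chosen by their sample titles, 3 titled knockdown1 and 3 titled knockdown2, which makes 6 of the 9 arrays in the series. The other 3 arrays, titled as the knockdown control, were used to show on which side of the control a difference between the knockdowns lay. HepG2 is an established human line of hepatocellular carcinoma that still makes many liver proteins. Both knockdown groups were labelled as HepG2 cells in which HNF4alpha and HNF4gamma were depleted together, and the series' design text names small interfering RNA as the means. What set knockdown1 apart from knockdown2, what the control cells received and how long after transfection RNA was taken are not given in the labels. Nor are the replicates said to be separate cultures, so the p-values rest on a spread between arrays that may be technical only.

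HNF4alpha and HNF4gamma are nuclear receptors that bind DNA as dimers and switch on genes of liver and gut epithelium, among them genes of lipoprotein, bile acid and drug metabolism. HNF4alpha is also known to restrain the proliferation of liver cells. A small interfering RNA guides the RNA-induced silencing complex to matching messenger RNA, and it can also lower partly matching transcripts or set off interferon responses. Cells that enter S phase express genes for DNA replication that E2F factors switch on, and cells that go on to mitosis express a later wave of genes, many with a CHR (cell cycle genes homology region) and a CCAAT box in their promoters.

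Expression was measured on Affymetrix arrays as a relative brightness, the MAS5 signal, which has no count or depth behind it. The number of arrays therefore sets the precision. Signals were scaled to a common array median of 14.1 and compared as log2(signal + 1.41), a scale that understates the difference of dim genes. All 13056 genes with a probe set of 1 gene symbol above the filter were tested, and a gene is written as called, or as having risen or fallen, where the limma adjusted p was under 0.05. Log2 differences, also those given in brackets after a gene, are knockdown1 minus knockdown2 unless control is named, and the tests use Benjamini-Hochberg adjustment over all tested genes. Arrays of a group correlated with each other at 0.973 to 0.978 over genes, and arrays of different knockdowns at 0.947 to 0.953. The hepatocyte genes ALB, APOA1, APOB, TTR, SERPINA1 and AFP were not called between the knockdowns (ALB passed under the 3 other scalings of the arrays, SERPINA1 after quantile normalization and APOA1 without knockdown1 replicate 3), whereas FGB, a fibrinogen chain, was lower in knockdown1. The log2 ratio of 3′ to 5′ control probe sets, a sign of RNA integrity, lay between -0.16 and -0.06 for GAPDH and between 0.21 and 0.47 for ACTB, and the groups overlapped. In RNA of whole cultures, fewer cells of a kind and less RNA per cell cannot be told apart.

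The targeted gene HNF4G was dim and did not pass the test between the knockdowns. Its signals were 14.4, 23.5 and 17.4 in knockdown1, 41.9, 24.4 and 28.6 in knockdown2 and 45.2, 47.9 and 44.9 in control. Every knockdown array was below the lowest control array, and the highest knockdown1 array came close to the lowest knockdown2 array. The log2 difference, knockdown1 minus knockdown2, was -0.72 (SE 0.28, limma adjusted p = 0.0517), and it passed the threshold under 5 alternatives, among them leaving out knockdown1 replicate 2 or knockdown2 replicate 2. Against control the log2 difference was -1.28 in knockdown1 (limma adjusted p = 0.000538) and -0.56 in knockdown2 (limma adjusted p = 0.142). HNF4A was not analysed here.

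The 2 knockdown groups differed from each other in 3473 of 13056 genes, 26.6% of those tested. In knockdown1, 1368 genes were higher (10.5%) and 2105 were lower (16.1%). The 3 arrays of one knockdown did not overlap the 3 of the other in 5710 genes, 43.7% of those tested. With a call and a difference of at least 2-fold, 1006 genes remained (7.71%), of which 331 genes were higher (2.54%) and 675 were lower (5.17%), and at 4-fold or more 20 were higher and 109 were lower. For comparison, 4351 genes were called between knockdown1 and control (33.3%) and 3608 between knockdown2 and control (27.6%), and these comparisons share the control arrays. The split between the directions depended on the scaling of the arrays. Of the called genes 39.4% were higher in knockdown1 after scaling to a common median, 57.1% with the signals as deposited and 53% after quantile normalization. Centring on the tested genes gave 47.3%. Over all tested genes the median log2 difference was 0.08 as deposited and -0.03 after scaling, and the sizes below are those after scaling. The excess of lower genes among the large differences, 675 against 331, is described next by where the control arrays lay.

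**Figure D1:**
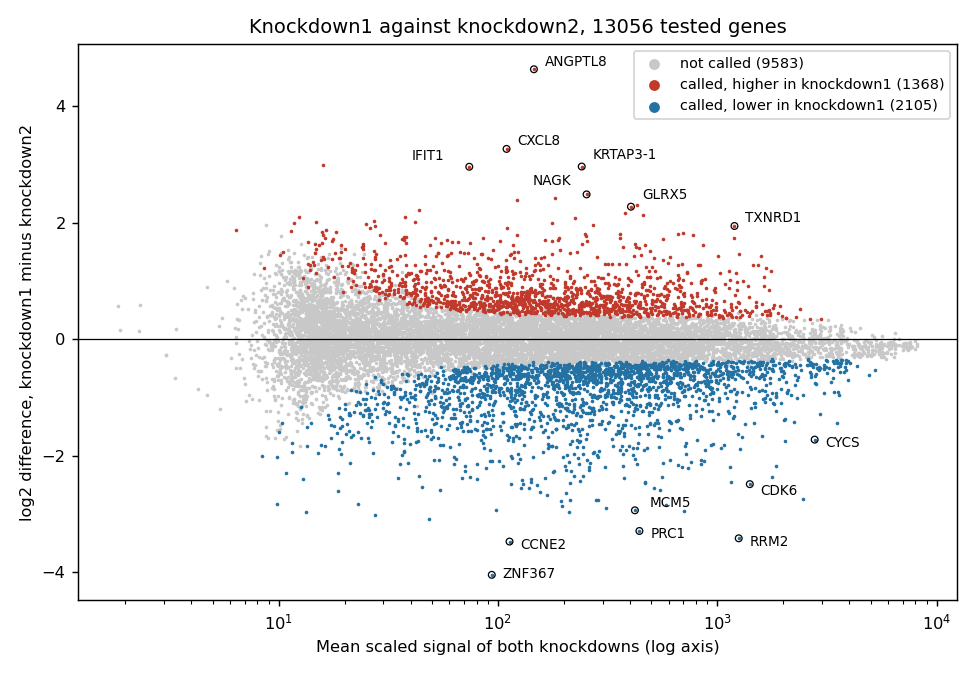
Each point is 1 of 13056 tested genes, with the mean scaled signal of both knockdowns on a log axis and the log2 difference, knockdown1 minus knockdown2, on the vertical axis. Red points were called higher in knockdown1 (1368) and blue points lower (2105) by limma at an adjusted p under 0.05. The circled genes are described in the text, from ANGPTL8 at 4.63 to ZNF367 at -4.04.

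The large differences fell into several patterns against control. Of the 675 genes lower in knockdown1 by at least 2-fold, 310 (45.9%) had 3 knockdown1 arrays apart from all control arrays while the knockdown2 arrays overlapped control. In 103 of them (15.3%) only the knockdown2 arrays stood apart, and in 106 (15.7%) the knockdowns lay on opposite sides of control. A further 138 (20.4%) had both knockdowns on the same side. Of the 331 genes higher in knockdown1 by at least 2-fold, 111 (33.5%) had only the knockdown2 arrays apart from control, 81 (24.5%) had only the knockdown1 arrays apart, and 68 (20.5%) had the knockdowns on opposite sides. Over all tested genes only the knockdown1 arrays stood apart in 16.4%, only the knockdown2 arrays in 16.4%, and the knockdowns lay on opposite sides in 2.45%. Being called between the knockdowns favours genes where at least 1 group left the control, so these shares are a description.

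Genes were then grouped by function in 57 lists. They held 1075 tested genes, and many genes of the cell cycle lists were lower in knockdown1. The counts given below for single lists stand beside shares of 10.5% higher and 16.1% lower over all tested genes. Of 92 tested genes of S phase (origin licensing, replication forks, nucleotide supply and the G1/S regulators), 71 were lower and 2 were higher in knockdown1. Of 101 tested genes of mitosis, 95 were lower and 0 higher, with 1 higher at an unadjusted limma p under 0.05. In S phase 79.3% of the tested members were called and in mitosis 94.1%, beside 26.6% of all tested genes. By contrast, 12.9% were called of 101 genes for ribosomes, oxidative phosphorylation and the proteasome.

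**Figure D2:**
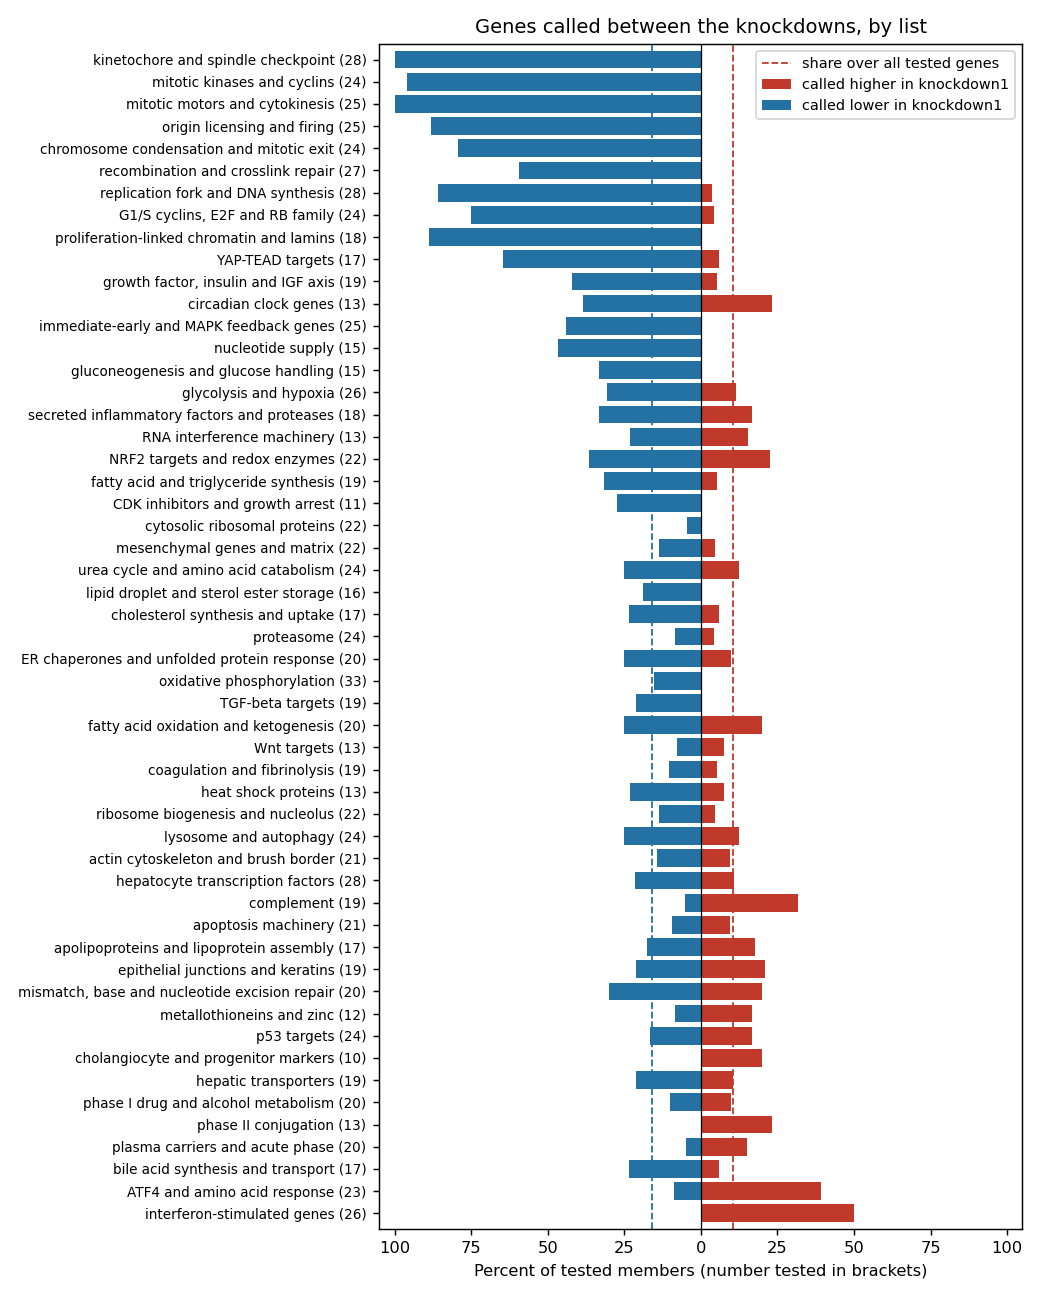
Bars give the percent of tested members of each list called higher (red, right) or lower (blue, left) in knockdown1 than in knockdown2, for lists with at least 10 tested members, with the number tested in brackets. Dashed lines mark the shares over all tested genes, 10.5% higher and 16.1% lower. The lists for kinetochores and for mitotic motors reach 100% lower, and the interferon-stimulated genes have the longest bar on the right, 13 of 26.

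Origin licensing loads the MCM helicase on DNA before S phase, and 22 of 25 tested genes of licensing and origin firing were lower in knockdown1, with 0 higher, also at an unadjusted limma p under 0.05. The median log2 difference of the list was -1.36, beside -0.03 over all tested genes. MCM5, a subunit of the helicase, had signals of 96.4, 90.5 and 102 in knockdown1, 733, 744 and 761 in knockdown2 and 1083, 938 and 1266 in control. Every knockdown1 array was far below every other array, and the knockdown2 arrays were also below control. The knockdowns differed on the log2 scale by -2.93 (SE 0.14, limma adjusted p = 3.26e-14). MCM10, which helps to activate the helicase, read 46.8, 49.0 and 73.8 in knockdown1, 345, 335 and 371 in knockdown2 and 257, 251 and 336 in control. Here the knockdown2 arrays overlapped the top of the control range, and the log2 difference was -2.63 (SE 0.17, limma adjusted p = 4.04e-12). CDC6, which recruits the helicase to origins, read 108, 124 and 131 in knockdown1, 458, 456 and 461 in knockdown2 and 784, 676 and 803 in control. The 3 groups did not overlap, with knockdown1 lowest and control highest, and the log2 difference between the knockdowns was -1.92 (limma adjusted p = 4.40e-11). The helicase subunit MCM2 (log2 difference -1.44), the origin recognition subunit ORC1 (-2.03) and the helicase partner CDC45 (-2.01) were lower as well. Of the 22 lower genes, 15 had only the knockdown1 arrays apart from control and 7 had both knockdowns apart on the same side.

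At the replication fork 24 of 28 tested genes were lower in knockdown1, with a median log2 difference of -1.21. PCNA, the sliding clamp of the DNA polymerases, had 1348, 1364 and 1732 in knockdown1, 2705, 2984 and 2889.8 in knockdown2 and 2915, 2524 and 3318 in control. The knockdown2 arrays lay among the control arrays, and the knockdowns differed on the log2 scale by -0.96 (SE 0.14, limma adjusted p = 3.21e-06). POLD3, an accessory subunit of DNA polymerase delta, was lower by more, with mean signals of 21.7 ± 6.25 in knockdown1, 116 ± 9.20 in knockdown2 and 132 ± 32.4 in control (SD, n = 3) and a log2 difference of -2.37 (limma adjusted p = 6.47e-10). The flap endonuclease FEN1 (-1.66), the primase subunit PRIM1 (-1.67) and the polymerase epsilon subunit POLE2 (-1.68) had log2 differences close to each other. The single gene of this list called in the other direction was RFC1, the large subunit of the clamp loader, with signals of 281, 218 and 268 in knockdown1, 199, 172 and 179.7 in knockdown2 and 333, 288 and 408 in control. Its log2 difference of 0.47 (limma adjusted p = 0.027) lost the call when knockdown1 replicate 1 or 3, or knockdown2 replicate 2 or 3, was left out.

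For nucleotide supply 7 of 15 tested genes were lower in knockdown1 and 0 higher, also at an unadjusted limma p under 0.05. Ribonucleotide reductase makes deoxyribonucleotides, and its S phase subunit RRM2 had the largest log2 difference of the list. RRM2 signals were 196, 198 and 249 in knockdown1, 2092, 2378 and 2401 in knockdown2 and 1999.7, 2054 and 2462 in control. The knockdown2 and control arrays overlapped, and every knockdown1 array was far below both. The knockdowns differed on the log2 scale by -3.41 (SE 0.14, limma adjusted p = 9.66e-16), and from control by -3.33 in knockdown1 and 0.08 in knockdown2. The other subunit RRM1 read 216, 175 and 252 in knockdown1, 898, 963 and 907 in knockdown2 and 699, 588 and 958 in control, a log2 difference of -2.11 between the knockdowns (limma adjusted p = 1.01e-10). Thymidylate synthase TYMS (-1.65), the dUTPase DUT (-1.79) and thymidine kinase TK1 (-0.98) were also lower, and all 7 called genes of the list had only the knockdown1 arrays apart from control.

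Some regulators of the G1/S transition stood above control in knockdown2, although the list as a whole did not. Its medians against control were -1.22 in knockdown1 and -0.11 in knockdown2, near those of the replication fork list, -1.22 and -0.14. Of 24 tested genes 18 were lower and 1 was higher in knockdown1, with a median log2 difference of -1.10. Of the 18, 5 had the knockdowns on opposite sides of control, 4 had only knockdown1 apart and 8 had both on the same side. CDK6, a kinase that phosphorylates the retinoblastoma protein with D cyclins, had signals of 386, 418 and 476 in knockdown1, 2367, 2418 and 2376 in knockdown2 and 1187, 1153 and 1548 in control. Every knockdown1 array was below and every knockdown2 array above all control arrays. Between the knockdowns the log2 difference was -2.49 (SE 0.14, limma adjusted p = 3.39e-13), and against control it was -1.59 in knockdown1 and 0.89 in knockdown2, both called. CCND1, which encodes cyclin D1, the partner of CDK6, gave 240.2, 352 and 389 in knockdown1, 1032, 1090.0 and 1208 in knockdown2 and 662, 575 and 860.3 in control. The order of the groups was the same, without overlap, and the log2 difference was -1.79 (SE 0.17, limma adjusted p = 3.55e-09). CCNE2, cyclin E2, which drives entry into S phase with CDK2, gave 15.8, 18.1 and 18.6 in knockdown1, 190.1, 229 and 206 in knockdown2 and 92.6, 124 and 136 in control. It too lay on opposite sides of control and had the largest difference of the list, -3.47 (SE 0.18, limma adjusted p = 9.67e-14).

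RBL2 and WEE1 restrain the cell cycle and moved with these drivers. RBL2, the retinoblastoma relative p130, which holds cells in quiescence, read 149.6, 137 and 154 in knockdown1, 453, 579.8 and 541 in knockdown2 and 173, 159 and 239.8 in control. The knockdown2 arrays stood far above both other groups, with a log2 difference of -1.82 between the knockdowns (limma adjusted p = 1.12e-09) and 1.47 against control. WEE1, the kinase that inhibits CDK1 until mitosis, read 312, 212 and 270.2 in knockdown1, 1296, 1213 and 1125 in knockdown2 and 737, 620.3 and 955 in control. Its knockdowns lay on opposite sides of control, and the log2 difference was -2.20 (SE 0.16, limma adjusted p = 3.37e-11). RBL2 and WEE1 are outside the rule for naming genes and were chosen after their values were seen. E2F1, an activator of S phase genes, was dim, with mean signals of 19.8 ± 11.9 in knockdown1, 53.7 ± 14.6 in knockdown2 and 110.3 ± 32.5 in control (SD, n = 3) and a log2 difference of -1.48. E2F7, a repressor of the same family, differed by -2.17, and CKS1B, a small subunit of cyclin-dependent kinases, by -2.19. The gene of the list called higher was CCND2, cyclin D2, with 219, 228 and 307 in knockdown1, 81.5, 72.1 and 71.7 in knockdown2 and 51.6, 74.0 and 74.7 in control. Only its knockdown1 arrays left the control range, by a log2 difference of 1.71 from knockdown2 (SE 0.18, limma adjusted p = 1.89e-08).

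The genes of mitosis were lower in knockdown1 almost throughout. Their median log2 difference between the knockdowns was -1.55 over 101 tested genes, and against control the medians were -1.74 for knockdown1 and -0.09 for knockdown2. Of the 95 lower genes 79 differed by at least 2-fold and 31 by at least 4-fold. In 58 of them only the knockdown1 arrays stood apart from control, in 27 both knockdowns lay on the same side and in 7 on opposite sides.

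Among mitotic kinases and cyclins 23 of 24 tested genes were lower in knockdown1. CDK1, the kinase that starts mitosis, had 253, 203 and 279 in knockdown1, 1035, 1122 and 1097 in knockdown2 and 1471, 1192 and 1479 in control. Both knockdowns lay below control without overlap, and the knockdown2 difference from control did not pass the test. Between the knockdowns the log2 difference was -2.15 (SE 0.15, limma adjusted p = 6.91e-12). Its cyclin CCNB1 differed by -1.36, the phosphatase CDC25C, which activates CDK1, by -2.26, and the proliferation antigen MKI67 by -1.83. FOXM1, the transcription factor of mitotic genes, read 48.2, 40.1 and 54.9 in knockdown1, 125, 130.4 and 135 in knockdown2 and 279.6, 259 and 353 in control. It was lower than control in both knockdowns, with log2 differences of -2.60 and -1.17, and differed between them by -1.43 (limma adjusted p = 1.28e-07). HMMR, a spindle protein, gave 148, 132 and 167 in knockdown1, 803, 949.9 and 887 in knockdown2 and 729.9, 876 and 1110.5 in control. The knockdown2 arrays fell within the control range, and HMMR had the largest log2 difference of the list, -2.55 (limma adjusted p = 1.35e-12).

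All 28 tested genes of kinetochores and the spindle checkpoint were lower in knockdown1 (median -1.80), as were all 25 tested motors and cytokinesis genes (median -1.55). With the signals as deposited, 27 of the 28 kinetochore genes were called. NUF2, which links kinetochores to microtubules, read 37.6, 33.3 and 38.0 in knockdown1, 214, 225 and 217 in knockdown2 and 239, 201 and 329 in control. Its log2 difference of -2.55 (limma adjusted p = 5.81e-12) came with knockdown2 arrays inside the control range. CDCA8, borealin of the chromosomal passenger complex, differed by -2.55, and HJURP, the chaperone of the centromeric histone, by -2.45. PRC1, which bundles the microtubules of the central spindle, gave 88.9, 77.2 and 76.6 in knockdown1, 856, 744 and 807 in knockdown2 and 839, 684 and 898 in control. The knockdown2 and control arrays overlapped, and the knockdown1 arrays were far below both, a log2 difference of -3.29 (SE 0.15, limma adjusted p = 4.57e-15). KIFC1, a motor that focuses spindle poles, read 8.46, 10.7 and 8.46 in knockdown1, 88.2, 78.8 and 96.8 in knockdown2 and 119, 128 and 153 in control. Its knockdown1 arrays were near the dim end of the scale, and the log2 difference was -3.08 (limma adjusted p = 4.42e-12). CEP55, which acts in the final cut of cytokinesis, differed by -2.78 (limma adjusted p = 5.76e-13). Of 24 tested genes of chromosome condensation and mitotic exit 19 were lower, among them the topoisomerase TOP2A (-1.56), the condensin subunit NCAPH (-2.66) and CDC20 (-1.84), which activates the anaphase-promoting complex.

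**Figure D3:**
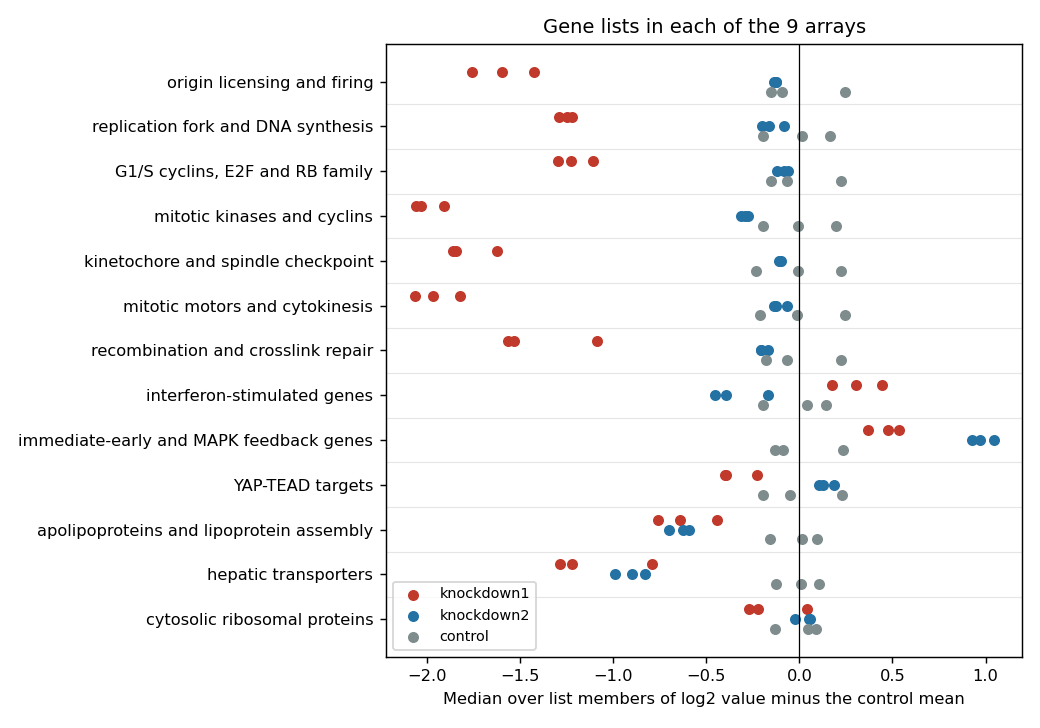
Each point is 1 array, placed at the median over the tested members of a list of their log2 value minus the mean of the control arrays. In the lists plotted for origin licensing, replication forks, G1/S, the 3 mitotic groups and recombination, the 3 knockdown1 arrays (red) lie between -2.07 and -1.09, and the knockdown2 arrays (blue) between -0.31 and -0.06. The immediate-early list lies above control in both knockdowns, and the lists of apolipoproteins and transporters lie below it in both.

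Repair genes divided by pathway. In recombination and crosslink repair 16 of 27 tested genes were lower in knockdown1 and 0 higher, also at an unadjusted limma p under 0.05. CHEK1, a kinase of the DNA damage checkpoint, read 54.6, 51.8 and 75.6 in knockdown1, 294, 298 and 297 in knockdown2 and 299, 293 and 407 in control. The knockdown2 arrays overlapped the lower part of the control range, every knockdown1 array was far below both, and the log2 difference was -2.28 (limma adjusted p = 3.17e-11). The crosslink repair protein FANCI (-2.51) and BRCA1 (-1.75) differed in the same direction. Mismatch and excision repair held 6 lower and 4 higher genes of 20 tested, and 6 lower and 8 higher with the signals as deposited. MSH6, a mismatch sensor (-1.16), and the uracil glycosylase UNG (-1.46) were lower. OGG1, the glycosylase for oxidised guanine, was higher, with 77.1, 55.5 and 83.1 in knockdown1, 29.8, 43.6 and 23.5 in knockdown2 and 106, 118 and 131 in control. Both knockdowns were below control, knockdown2 further, and the log2 difference between them was 1.14 (limma adjusted p = 0.000133). Of 18 tested chromatin and lamina genes linked to proliferation 16 were lower, including HMGB2 (-2.20), the lamin B receptor LBR (-2.08) and lamin B1, LMNB1 (-1.73).

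Promoter windows of genes with large differences are shown for the sequence features by which the waves of mitosis and S phase are known. These are the CHR and CCAAT boxes of mitotic genes and the E2F motif of S phase genes. The windows run from 250 bases before to 50 after the start of the gene, from RefSeq on GRCh38.p14, written 5′ to 3′ on the strand of the gene. A motif match is a description of the letters and not a bound site. The first pair are the mitotic genes with the largest differences that have 1 window, PRC1 (chr15:90994486-90994785, minus strand) and KIFC1 (chr6:33391573-33391872, plus strand). Capitals mark TTTGAA or TTCGAA and CCAAT on either strand.
PRC1: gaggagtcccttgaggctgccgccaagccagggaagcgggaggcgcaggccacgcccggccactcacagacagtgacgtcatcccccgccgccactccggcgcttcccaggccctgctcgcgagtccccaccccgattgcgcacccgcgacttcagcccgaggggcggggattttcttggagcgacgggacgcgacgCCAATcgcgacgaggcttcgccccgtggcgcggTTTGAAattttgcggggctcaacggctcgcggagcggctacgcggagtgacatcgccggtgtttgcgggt
KIFC1: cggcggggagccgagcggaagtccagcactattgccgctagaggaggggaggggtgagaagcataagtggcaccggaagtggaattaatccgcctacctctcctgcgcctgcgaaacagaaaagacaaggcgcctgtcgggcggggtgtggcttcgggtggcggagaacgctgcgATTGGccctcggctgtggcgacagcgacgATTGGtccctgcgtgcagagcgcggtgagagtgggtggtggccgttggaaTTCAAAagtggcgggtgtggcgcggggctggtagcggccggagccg
The PRC1 window held 2 such matches, the first starting at position -53 and the last at -20 from the start of the gene. KIFC1 held 3, from position -75 to 4, which includes a pair of CCAAT boxes on the opposite strand. The next pair are S phase genes with 1 window, a match to the E2F motif and large differences, E2F7 (chr12:77065520-77065819, minus strand) and RRM1 (chr11:4094435-4094734, plus strand). They were shown because they hold a match, and S phase genes with larger differences, among them CCNE2, are not printed. Capitals mark TTGGCGC or TTCCCGC on either strand.
E2F7: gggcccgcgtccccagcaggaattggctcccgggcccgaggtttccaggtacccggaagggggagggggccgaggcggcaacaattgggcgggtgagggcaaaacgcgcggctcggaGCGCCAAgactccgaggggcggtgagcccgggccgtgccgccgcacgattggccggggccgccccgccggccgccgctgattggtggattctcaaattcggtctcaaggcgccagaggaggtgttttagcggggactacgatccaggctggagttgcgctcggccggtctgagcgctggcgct
RRM1: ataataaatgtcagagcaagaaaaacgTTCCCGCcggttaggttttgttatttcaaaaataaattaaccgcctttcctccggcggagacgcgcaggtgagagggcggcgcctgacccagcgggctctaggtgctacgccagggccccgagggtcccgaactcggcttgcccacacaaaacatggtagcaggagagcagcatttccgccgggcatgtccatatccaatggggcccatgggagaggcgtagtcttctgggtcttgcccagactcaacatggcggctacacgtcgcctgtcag
The match in E2F7 started at position -133 and that in RRM1 at -223. MCM10 and CKS1B, which have larger differences and 1 window each, held 0 matches to these letters in theirs.

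Of 10521 tested genes with a window, 16.0% held TTTGAA or TTCGAA, 42.8% CCAAT and 17.0% TTGGCGC or TTCCCGC, on either strand. Genes with several windows counted if any held the motif. Among 85 mitosis genes with a window, 70.6% held the CHR letters and 70.6% CCAAT. Among 78 S phase genes, 55.1% held the E2F letters, 53.8% CCAAT and 14.1% the CHR letters. Over all 548 genes lower in knockdown1 by at least 2-fold with a window, the shares were 28.8% for the CHR letters, 27.4% for E2F and 49.1% for CCAAT. The 276 genes higher by at least 2-fold held them in 20.7%, 12.7% and 41.3%. The letters AAGTCCA, part of the HNF4 motif, were found in 3.62% of all windows' genes, 3.28% of the lower and 2.54% of the higher genes.

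Genes of growth arrest did not follow the cell cycle lists. Of 55 tested genes of arrest, p53 targets and apoptosis 27.3% were called, beside 26.6% of all tested genes. CDKN1A, the inhibitor p21, was not called between the knockdowns, with 1374, 1379 and 1526 in knockdown1, 1207, 1188 and 1184 in knockdown2 and 620.0, 575 and 777 in control. Both knockdowns were above every control array, by log2 differences of 1.13 and 0.87, and the difference between them of 0.26 (limma adjusted p = 0.183) passed the threshold with the signals as deposited, after quantile normalization and after centring on the tested genes. Of 11 tested inhibitors and arrest genes 3 were lower in knockdown1 and 0 higher, with 0 higher at an unadjusted limma p under 0.05. GADD45B, a stress-induced growth arrest gene, had 101, 91.3 and 118 in knockdown1, 228, 250.4 and 278 in knockdown2 and 159, 139 and 185 in control, on opposite sides of control, a log2 difference of -1.28 (limma adjusted p = 4.79e-07). Of 24 tested p53 targets 4 were higher and 4 lower, and 9 were higher and 5 lower with the signals as deposited. ZMAT3, an RNA-binding protein induced by p53, had 634, 549 and 686 in knockdown1, 122, 146 and 143 in knockdown2 and 78.2, 66.1 and 109 in control. All knockdown1 arrays were far above the rest, and knockdown2 was also above control. The knockdowns differed on the log2 scale by 2.17 (SE 0.17, limma adjusted p = 1.05e-10). TP53INP1, a p53-induced nuclear protein, differed by 1.17, and the p53 target MDM2 was not called, at -0.38 (limma adjusted p = 0.0829), and passed the threshold under 5 alternatives, among them centring on the tested genes and leaving out control replicate 2 or 3.

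In the list of apoptosis machinery 2 of 21 tested genes were higher and 2 lower in knockdown1, and 4 were higher under each other scaling. CYCS, cytochrome c, which carries electrons in respiration and triggers caspases when released, had 1195, 1162 and 1541 in knockdown1, 3958, 4499.9 and 4322 in knockdown2 and 2425, 2293 and 2944 in control. The knockdowns lay on opposite sides of control, with a log2 difference of -1.72 (SE 0.14, limma adjusted p = 1.24e-10). MCL1, an inhibitor of apoptosis, was lower in knockdown1 (-0.76), with only the knockdown2 arrays above control. XIAP, an inhibitor of caspases, was higher (0.74), with only the knockdown1 arrays apart from control.

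Interferon-stimulated genes were the list with the largest share higher in knockdown1. Of 26 tested genes 13 were higher and 0 lower, with 16 higher and 1 lower at an unadjusted limma p under 0.05, and the median log2 difference was 0.54. The count of higher genes was 15 with the signals as deposited, after quantile normalization and after centring, and 10 to 14 when 1 array was left out. IFIT1, which binds viral RNA that lacks host cap modification, read 104, 199 and 96.5 in knockdown1, 14.1, 17.0 and 13.99 in knockdown2 and 32.7, 28.6 and 39.3 in control. Every knockdown1 array was above and every knockdown2 array below all control arrays, and knockdown1 replicate 2 was the highest. The log2 difference was 2.96 (SE 0.25, limma adjusted p = 4.87e-10), and against control it was 1.88 in knockdown1 and -1.08 in knockdown2, both called. IFI6, an interferon-induced mitochondrial protein, was dim, with 41.3, 46.7 and 36.1 in knockdown1, 10.9, 17.4 and 22.5 in knockdown2 and 28, 17.1 and 22.7 in control. Only its knockdown1 arrays stood apart from control, and the log2 difference was 1.27 (SE 0.31, limma adjusted p = 0.00292).

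In most of the 13 genes the knockdown2 arrays lay below control. In 8 of them only the knockdown2 arrays stood apart from control, in 2 only the knockdown1 arrays, in 2 both lay on opposite sides and in 1 both on the same side. IFIT3, a partner of IFIT1, read 116, 127 and 69.6 in knockdown1, 34.8, 44.6 and 28.5 in knockdown2 and 91.0, 76.8 and 123 in control. Knockdown1 and control overlapped, and knockdown2 lay below both, with a log2 difference of 1.47 between the knockdowns (SE 0.22, limma adjusted p = 8.26e-06). The RNA sensor IFIH1 (1.05), the oligoadenylate synthetases OAS1 (0.90) and OAS3 (0.79) and the protease USP18 (0.79), which removes ISG15 from proteins, had the same order, with knockdown2 lowest. MX1, a GTPase that blocks viruses, lay on opposite sides of control in the knockdowns, at mean signals of 95.0 ± 28.7 in knockdown1, 38.3 ± 7.24 in knockdown2 and 57.3 ± 10.7 in control (SD, n = 3), a log2 difference of 1.26 (limma adjusted p = 6.12e-05). BST2 (tetherin) differed by 0.75, and its knockdown2 mean was above control, at 168 ± 2.28 beside 135 ± 28.2 (SD, n = 3). IRF9, the DNA-binding part of the interferon-activated ISGF3 complex, differed by 0.69. ISG15, a ubiquitin-like modifier, differed by 0.55 (limma adjusted p = 0.0116), a call that was lost without knockdown1 replicate 3 or knockdown2 replicate 1. PARP9 differed by 0.70 (limma adjusted p = 0.0227), a call that was lost without knockdown1 replicate 2 or knockdown2 replicate 1, with no filter on low signals and for the mean over its probe sets. IFIH1, OAS1, OAS3, USP18, BST2, PARP9 and IRF9 are outside the rule for naming genes and were chosen after their values were seen.

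**Figure D4:**
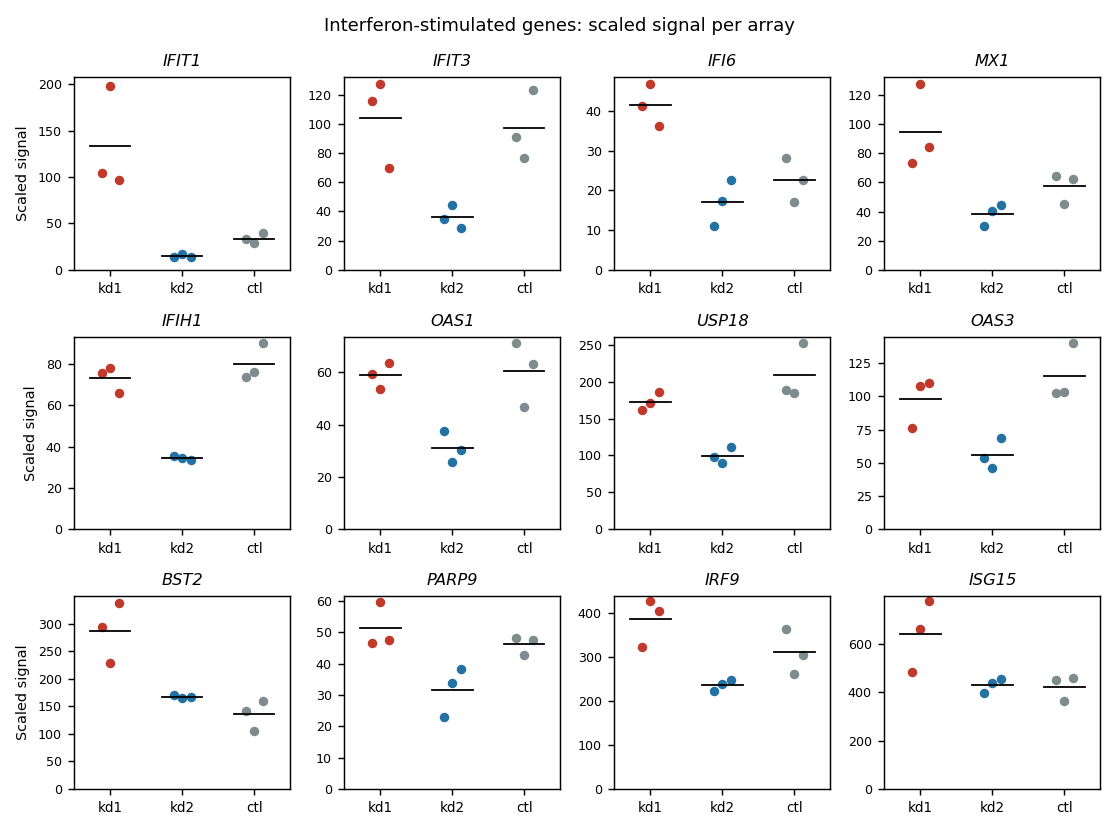
Each panel shows the scaled signal of 1 interferon-stimulated gene in the 3 arrays of knockdown1 (kd1), knockdown2 (kd2) and control (ctl), with a line at the mean of each group. IFIT1 and IFI6 stand above control in knockdown1, while IFIT3, IFIH1, OAS1, OAS3 and USP18 stand below control in knockdown2 and overlap it in knockdown1.

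Promoter windows of the called interferon genes with 1 window and the largest differences are shown for the interferon-stimulated response element, searched as GAAA, any 2 bases and GAAA again, on both strands. These letters were chosen after the results were seen. The windows are those of IFIT1 (chr10:89392373-89392672, plus strand) and IFI6 (chr1:27672143-27672442, minus strand), and capitals mark the matches.
IFIT1: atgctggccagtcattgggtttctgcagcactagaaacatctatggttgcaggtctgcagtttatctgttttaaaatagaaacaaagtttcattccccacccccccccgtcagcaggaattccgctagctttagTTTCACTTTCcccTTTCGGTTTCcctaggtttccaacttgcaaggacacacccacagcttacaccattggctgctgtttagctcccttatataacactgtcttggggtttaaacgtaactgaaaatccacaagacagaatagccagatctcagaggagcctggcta
IFI6: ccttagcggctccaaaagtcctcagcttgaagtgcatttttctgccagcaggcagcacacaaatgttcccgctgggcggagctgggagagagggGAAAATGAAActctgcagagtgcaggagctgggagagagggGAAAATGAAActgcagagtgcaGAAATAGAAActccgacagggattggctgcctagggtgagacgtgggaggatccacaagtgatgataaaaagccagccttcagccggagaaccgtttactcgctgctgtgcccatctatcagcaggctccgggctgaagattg
IFIT1 held 2 matches, starting at positions -116 and -103, and IFI6 held 3 between -156 and -93. Of the 12 interferon genes called higher that have a window 10 held a match (83.3%), and of the 20 tested with a window 15 did (75%). The share over all tested genes with a window was 3.78%, and among genes higher in knockdown1 by at least 2-fold it was 6.52%.

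Secreted inflammatory factors and proteases gave 3 higher and 6 lower genes of 18 tested. CXCL8, the neutrophil chemokine interleukin-8, had 191, 182 and 224 in knockdown1, 21.3, 24.2 and 14.1 in knockdown2 and 9.91, 9.04 and 6.53 in control. The groups did not overlap, and knockdown1 was far above the others. Its log2 difference of 3.26 between the knockdowns (SE 0.26, limma adjusted p = 1.21e-10) stood beside 4.35 and 1.09 against control. MMP3, the matrix protease stromelysin, gave 274, 353 and 464 in knockdown1, 56.2, 106 and 95.9 in knockdown2 and 29.3, 42.6 and 45.6 in control. It had the same order without overlap, and a log2 difference of 2.08 (limma adjusted p = 2.10e-08). IL11, a cytokine of the interleukin-6 family, had the opposite order of knockdowns, with 85.4, 74.8 and 60.1 in knockdown1, 199, 253 and 181 in knockdown2 and 37.9, 40.9 and 52.0 in control. Both knockdowns were above control, knockdown2 more so, and the log2 difference was -1.51 (limma adjusted p = 3.18e-07). NFKBIA, the inhibitor of NF-kappaB, was lower in knockdown1, at -0.96 (limma adjusted p = 6.50e-05), with knockdown2 overlapping the control range.

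Targets of the growth control factor YAP and its DNA-binding partners TEAD gave 11 lower genes and 1 higher of 17 tested, with a median of -0.55. The list medians against control were -0.30 in knockdown1 and 0.11 in knockdown2. Of the 11 lower genes 5 had only the knockdown2 arrays apart from control and 3 only the knockdown1 arrays. In 2 both knockdowns lay on the same side and in 1 on opposite sides, so CCN1 and AXL below do not stand for the list. CCN1, a matricellular protein and common YAP target, read 309.8, 253 and 387 in knockdown1, 1256, 1442 and 1427 in knockdown2 and 338, 327 and 494 in control. Knockdown1 overlapped control, and all knockdown2 arrays were far above both, with a log2 difference of -2.13 (SE 0.17, limma adjusted p = 1.06e-10). AXL, a receptor tyrosine kinase, gave 84.2, 87.9 and 123 in knockdown1, 393, 402 and 445 in knockdown2 and 140.0, 126 and 183 in control. Its knockdowns lay on opposite sides of control, with a log2 difference of -2.07 (limma adjusted p = 2.41e-10). The list member called higher was TEAD4, a DNA-binding partner of YAP (0.61).

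Immediate-early and MAPK feedback genes gave 11 lower and 0 higher of 25 tested, with 2 higher at an unadjusted limma p under 0.05. With the signals as deposited or after quantile normalization the list gave 10 lower and 3 higher. The list median against control was 0.49 in knockdown1 and 0.97 in knockdown2. DUSP5, a phosphatase that switches off ERK in the nucleus, had 152, 125 and 116 in knockdown1, 281, 269 and 284 in knockdown2 and 37.8, 37.7 and 50.3 in control. Both knockdowns were above control without overlap, knockdown2 higher, and the log2 difference between them was -1.09 (limma adjusted p = 9.39e-06). EGR1, an early growth response factor, was not called between the knockdowns, at 0.15 (limma adjusted p = 0.727), and was above control in both. Among growth factor genes 8 of 19 tested were lower and 1 higher. EGFR, the receptor of epidermal growth factor, lay on opposite sides of control by its brightest probe set. It read 119, 131 and 150.3 in knockdown1, 245, 276 and 293 in knockdown2 and 192, 178 and 224 in control, a log2 difference of -1.02 (limma adjusted p = 9.32e-06). A further EGFR probe set, nearly as bright, had both knockdown means above control. Its means were 189 in knockdown1, 262 in knockdown2 and 141 in control, and its log2 difference of -0.47 was not called. A dimmer one had the order of the brightest, with means of 35.8, 59.1 and 49.8. IGFBP7, a secreted binding protein of the IGF axis, differed by -1.20, with only the knockdown2 arrays above control. FST and INHBE, which are in none of the lists, were among the largest differences. FST, follistatin, which binds and neutralises activins, gave 189, 109 and 201 in knockdown1, 1388, 1188 and 1159 in knockdown2 and 1807, 1243 and 1615 in control. The knockdown1 arrays were far below the rest, with a log2 difference of -2.94 (limma adjusted p = 1.75e-12). INHBE, the beta E subunit of activins, gave 926, 573 and 660.4 in knockdown1, 164, 140.0 and 123 in knockdown2 and 201, 157 and 265 in control. Here knockdown1 was far above the rest, by a log2 difference of 2.31 from knockdown2 (limma adjusted p = 1.63e-10).

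Stress pathways had called genes in both directions. Of 23 tested genes of ATF4 and the amino acid response 9 were higher and 2 lower in knockdown1, and 12 to 13 were higher under the other scalings. ASNS, asparagine synthetase and a standard ATF4 target, read 1718, 1481 and 1724 in knockdown1, 934, 762 and 787 in knockdown2 and 1289.7, 1022 and 1234 in control. The knockdowns lay on opposite sides of control, and the log2 difference was 0.99 (SE 0.14, limma adjusted p = 2.82e-06). The cystine transporter SLC7A11 differed by 0.68, while DDIT3, the stress factor CHOP, was not called, at -0.19 (limma adjusted p = 0.426). Targets of NRF2, the regulator of antioxidant genes, gave 5 higher and 8 lower of 22 tested. HMOX1, heme oxygenase, had 339.9, 342 and 397 in knockdown1, 873, 1004 and 981 in knockdown2 and 1153, 1106 and 1341 in control. It was lowest in knockdown1, at a log2 difference of -1.40 (limma adjusted p = 6.94e-09), and glutathione reductase GSR differed by -1.07. TXNRD1, thioredoxin reductase, went the other way, with 1947, 1788 and 1970.3 in knockdown1, 521, 483 and 477 in knockdown2 and 2437, 1986 and 2564 in control. All knockdown2 arrays were far below the rest, and the knockdowns differed on the log2 scale by 1.94 (SE 0.13, limma adjusted p = 8.58e-12).

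Among glycolysis and hypoxia genes 3 of 26 tested were higher and 8 lower. BNIP3, a hypoxia-induced mitophagy receptor, gave 558, 456 and 612 in knockdown1, 1997, 2097 and 1871 in knockdown2 and 2469, 2068 and 3088 in control. Only knockdown1 left the control range, by a log2 difference of -1.88 from knockdown2 (limma adjusted p = 1.09e-10). By a further bright BNIP3 probe set the knockdown2 mean was also below control. Its means were 757 in knockdown1, 1267 in knockdown2 and 1819 in control, a log2 difference of -0.76. SLC2A3, a glucose transporter, lay on opposite sides of control, with 724, 615 and 799.7 in knockdown1, 2133, 1837 and 1894 in knockdown2 and 1293, 1162 and 1243 in control, a log2 difference of -1.46 (limma adjusted p = 2.28e-09). P4HA1, a subunit of collagen prolyl hydroxylase, was higher in knockdown1 (1.01), and both knockdowns were below control.

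Several genes were higher in knockdown1 and had knockdown2 signals far below control. GLRX5, a mitochondrial glutaredoxin of iron-sulfur cluster assembly, read 684, 568 and 761 in knockdown1, 139.5, 151 and 121 in knockdown2 and 980.3, 830.3 and 1066 in control. Both knockdowns were below control, knockdown2 by a log2 difference of -2.79 and knockdown1 by -0.52. Between the knockdowns the log2 difference was 2.27 (SE 0.15, limma adjusted p = 5.85e-12). NAGK, a kinase that salvages N-acetylglucosamine, read 422, 410.2 and 459.9 in knockdown1, 83.9, 61.5 and 84.2 in knockdown2 and 377, 285 and 336 in control. The knockdown2 arrays were far below both other groups, with a log2 difference of 2.48 (SE 0.16, limma adjusted p = 3.13e-12). LYRM2, a mitochondrial protein of the LYR family, read 344, 272 and 304 in knockdown1, 46.7, 66.9 and 55.8 in knockdown2 and 184, 149.9 and 216 in control. Its knockdowns were on opposite sides of control, with a log2 difference of 2.42 (limma adjusted p = 1.47e-11). Its 4 further probe sets past the filter gave log2 differences from -0.13, at the dimmest, to 1.84. BMPR2, a receptor for bone morphogenetic proteins (2.39), and TMEM33, a membrane protein of the endoplasmic reticulum (2.13), also lay on opposite sides. For BMPR2 this held for the brightest probe set and for a dimmer one with a log2 difference of 1.97. Its other probe sets past the filter gave 0.03 to 0.32 and were not called, and most of them had knockdown2 means above control.

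Single members of other lists had the same shape. PSMD14, the deubiquitinase of the proteasome lid, had 2211, 2144 and 2590.0 in knockdown1, 784, 911 and 874 in knockdown2 and 2158, 1853 and 2645 in control. Only the knockdown2 arrays left the control range, and the log2 difference was 1.43 (SE 0.14, limma adjusted p = 6.66e-09). The proteasome list around it had 1 higher and 2 lower of 24 tested, and 3 to 5 higher under the other scalings. ACAA1, the thiolase of peroxisomal fatty acid oxidation, gave 618, 501 and 563 in knockdown1, 189, 182 and 185 in knockdown2 and 844, 684 and 1072 in control. Both knockdowns were below control, knockdown2 further, with a log2 difference of 1.59 between them (limma adjusted p = 6.87e-09). DNAJC3, an inhibitor of stress kinases in the endoplasmic reticulum, differed by 1.06, and GPAM, which starts triglyceride synthesis, by 1.02, both with only the knockdown2 arrays below control. EPCAM, an epithelial adhesion molecule, gave 1332, 1466 and 1612 in knockdown1, 507, 542 and 584 in knockdown2 and 1106, 876 and 1378 in control. Only knockdown2 was apart from control, with a log2 difference of 1.43 (limma adjusted p = 2.59e-08).

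**Figure D5:**
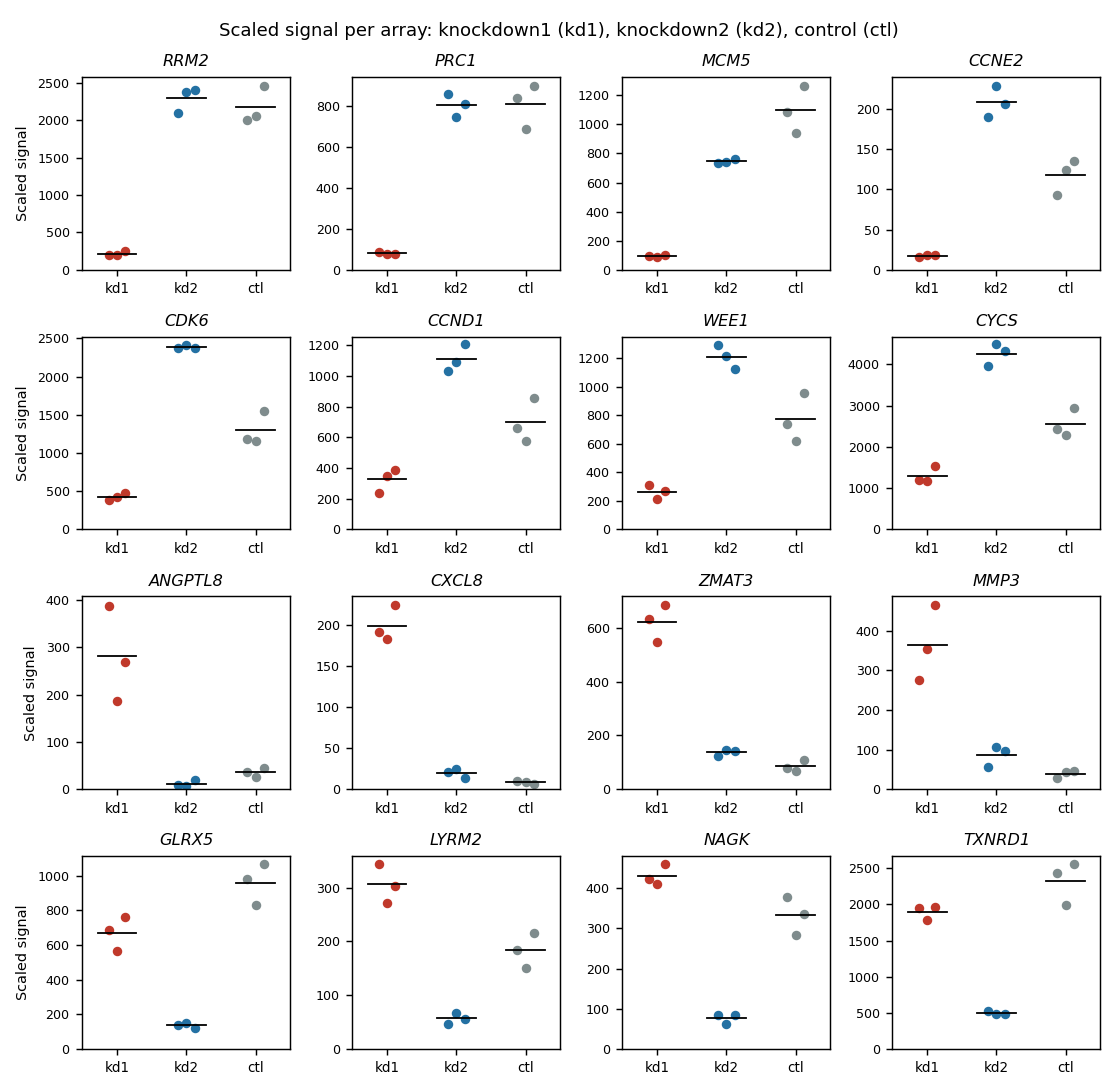
Each panel shows the scaled signal of 1 gene in the 3 arrays of knockdown1 (kd1), knockdown2 (kd2) and control (ctl), with a line at the mean of each group and an axis that starts at 0. RRM2 and PRC1 are low only in knockdown1, CDK6, CCND1, WEE1 and CYCS lie on opposite sides of control, and GLRX5, NAGK and TXNRD1 are far lower in knockdown2 than in the other groups.

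Large differences also occurred in genes outside the lists. ZNF367, a zinc finger protein, had the largest difference downwards, with 17.9, 2.60 and 14.7 in knockdown1, 177, 177 and 173 in knockdown2 and 117, 138 and 215 in control. The knockdown1 signals were close to or below the array median, so the size of its log2 difference, -4.04 (SE 0.34, limma adjusted p = 3.83e-10), depended on the pseudocount and was -2.93 when that was set to the median. MAN2A1, a Golgi mannosidase, gave 141, 134 and 153 in knockdown1, 1109, 983 and 999.7 in knockdown2 and 973, 799 and 1253 in control. Its knockdown2 arrays lay within the control range, and the log2 difference was -2.84 (limma adjusted p = 1.59e-13). SNU13, which binds U4 and box C/D RNAs (-2.89), the ankyrin repeat gene ANKRD46 (-2.97) and the aromatic amino acid transporter SLC16A10 (-2.93) were among the 14 largest differences downwards, and so were DEPDC1 (-2.85) and SHCBP1 (-2.77). Upwards, KRTAP3-1, a keratin-associated protein, read 369.7, 393 and 523 in knockdown1, 47.8, 49.9 and 62.9 in knockdown2 and 67.4, 48.8 and 69.0 in control, a log2 difference of 2.96 (limma adjusted p = 1.11e-12) with knockdown2 overlapping control. The peptide hormone SPX (2.22) and the actin adaptor SORBS2 (2.10) completed the list of the largest, together with the genes described above. Further probe sets past the filter were compared for 133 called genes, which the naming rule selected or which were chosen outside it. Of 241 such probe sets 228 had the same sign as the gene, 13 had the opposite sign, and 1 of these was called. That one belongs to PERP, a p53-linked membrane protein, which was lower in knockdown1 (-0.91) by its brightest probe set, while a dim further probe set gave 2.07 and the mean over its probe sets was not called.

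The hepatocyte lists, which HNF4 factors are known for, had a share of called genes near that of all genes. Of 254 tested genes 30 were higher and 46 lower, 29.9% called beside 26.6% of all genes, with a median of -0.03. Their medians against control were -0.51 in knockdown1 and -0.50 in knockdown2. APOC3, an apolipoprotein and standard HNF4 target, had 30.6, 33.7 and 59.4 in knockdown1, 36.4, 44.2 and 26.5 in knockdown2 and 717, 437 and 567 in control. The knockdowns overlapped, both far below control, and the log2 difference between them was 0.17 (SE 0.22, limma adjusted p = 0.641). FABP1, which carries fatty acids in liver cells, was likewise not called between the knockdowns, at -0.12 (limma adjusted p = 0.758), with log2 differences from control of -4.06 and -3.94. MTTP, which loads lipid onto apolipoprotein B, differed, with 72.4, 83.8 and 113 in knockdown1, 48.8, 57.4 and 58.2 in knockdown2 and 289, 273 and 333 in control. Knockdown2 was the lower one, at a log2 difference of 0.68 (limma adjusted p = 0.00387). HAMP, the iron hormone hepcidin, gave 51.9, 32.9 and 45.5 in knockdown1, 99.1, 79.9 and 89.2 in knockdown2 and 770.2, 353 and 385 in control. Here knockdown1 was the lower one, at -1.04 (limma adjusted p = 0.000592).

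ANGPTL8, a secreted liver protein that takes part in the control of plasma triglycerides, had the largest difference of all tested genes. Its signals were 389, 187 and 268 in knockdown1, 7.88, 5.70 and 18.3 in knockdown2 and 36.2, 25.4 and 44.1 in control. Every knockdown1 array was far above control and every knockdown2 array below it. The knockdowns differed on the log2 scale by 4.63 (SE 0.30, limma adjusted p = 3.13e-12), and from control by 2.92 in knockdown1 and -1.71 in knockdown2. The knockdown2 signals were at the dim end of the scale, and when the pseudocount was set to the median the difference was 3.55. Its promoter window (chr19:11239369-11239668, plus strand) was searched for all 5 motifs named above, and capitals mark the 1 match found, a CCAAT at position -201.
ANGPTL8: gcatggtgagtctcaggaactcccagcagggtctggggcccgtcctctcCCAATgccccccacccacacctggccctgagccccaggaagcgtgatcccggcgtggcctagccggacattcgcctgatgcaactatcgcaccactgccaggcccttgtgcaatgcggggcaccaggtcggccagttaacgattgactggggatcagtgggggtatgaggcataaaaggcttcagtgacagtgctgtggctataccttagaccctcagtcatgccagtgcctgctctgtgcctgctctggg

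Other liver genes moved one by one. The coactivator PPARGC1A, which drives gluconeogenesis and mitochondrial genes, read 18.1, 26.9 and 27.7 in knockdown1, 68.6, 78.7 and 78.3 in knockdown2 and 144, 119 and 155 in control. The groups did not overlap, knockdown1 was lowest, and the log2 difference was -1.60 (limma adjusted p = 2.74e-07). CYP3A5, a drug-metabolising cytochrome, gave 38.4, 28.8 and 20.3 in knockdown1, 80.7, 80.7 and 82.5 in knockdown2 and 26.1, 24.6 and 14.8 in control. Only knockdown2 left the control range, upwards, with a log2 difference of -1.48 (limma adjusted p = 6.49e-05). AQP3, a water and glycerol channel, gave 239, 140.3 and 184 in knockdown1, 785, 624 and 613 in knockdown2 and 218, 176 and 308 in control, the same shape, with a log2 difference of -1.86 (limma adjusted p = 1.45e-08). Of 17 tested apolipoprotein and lipoprotein genes 3 were higher and 3 lower, and the lower ones included APOC1 (-1.01) and APOE (-0.79). Gluconeogenesis had 5 lower and 0 higher of 15 tested, with 0 higher at an unadjusted limma p under 0.05. Amino acid catabolism had 6 lower and 3 higher of 24, or 5 to 6 higher under the other scalings, among them the methionine cycle genes BHMT (-1.67), MAT1A (0.75) and CBS (0.81), the last 2 higher. In lipid synthesis and storage the elongase ELOVL6 (-1.27) and the acyltransferase DGAT2 (-1.05) were lower. Of 19 tested complement genes 6 were higher and 1 lower, led by the lectin MBL2 (1.94) and by C4BPB (1.05), a chain of the C4b-binding protein. Plasma carriers gave 3 higher and 1 lower of 20 tested, but 9 higher and 2 lower with the signals as deposited and 10 higher and 1 lower after quantile normalization.

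Among 28 tested hepatocyte transcription factors 3 were higher and 6 lower, and 6 were higher under each other scaling. The transcription factor, clock and RNA interference lists together had 39.6% of 53 tested genes called, beside 26.6% of all tested genes. RORA, a nuclear receptor of the clock and lipid metabolism, was lower in knockdown1 (-1.46), as was NR1D2, the clock repressor REV-ERB beta (-1.25). NR2F6, an orphan receptor of the COUP-TF group, was higher (0.85). Of 13 tested clock genes 5 were lower and 3 higher. PER2, a repressor of the clock, read 423, 309.9 and 363 in knockdown1, 167, 238 and 219 in knockdown2 and 367, 367 and 432 in control. Only knockdown2 was apart from control, and the log2 difference was 0.81 (limma adjusted p = 0.000298). BHLHE40, a clock-linked repressor, was above control in both knockdowns and lower in knockdown1 than in knockdown2 (-0.88). In the metallothionein and zinc list the factor MTF1, which switches on metallothionein genes, was higher (1.47), with only knockdown1 apart from control.

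The RNA interference list holds genes that make small RNAs or act in silencing by them, and not all of them are needed for small interfering RNA. Of 13 tested genes 2 were higher and 3 lower in knockdown1, and 2 to 3 were called in each direction under the other scalings. DICER1, which cuts small RNA precursors, had 237, 221 and 253 in knockdown1, 501, 492 and 479.6 in knockdown2 and 466, 385 and 519 in control. Only knockdown1 was below control, with a log2 difference of -1.05 (SE 0.15, limma adjusted p = 2.67e-06). TNRC6B, a scaffold of the silencing complex, had 175, 156 and 152 in knockdown1, 71.4, 71.8 and 67.4 in knockdown2 and 69.8, 76.0 and 97.1 in control. Only knockdown1 was above control, with a log2 difference of 1.18 (limma adjusted p = 3.20e-06).

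Markers of cell shape gave 7 higher and 10 lower genes of 62 tested, 27.4% called beside 26.6% of all tested genes. NES, the intermediate filament nestin, read 255, 302 and 354 in knockdown1, 703, 590.1 and 666 in knockdown2 and 35.1, 44.3 and 61.2 in control. Both knockdowns were far above control, knockdown2 further, with a log2 difference of -1.11 between them (limma adjusted p = 1.81e-05). The integrin ITGA6 (-0.67), the repressor ZEB1 (-0.78) and the claudin CLDN6 (-1.54) were lower in knockdown1, and the claudin CLDN1 (0.97) and the microvillus protein VIL1 (0.78) were higher. In the lists for cell types other than hepatocytes 4 of 30 tested genes were higher and 1 lower, 16.7% called. SPP1, osteopontin, a bile duct and progenitor marker, was higher in knockdown1, with 478, 383 and 436 in knockdown1, 136, 104 and 92.4 in knockdown2 and 106, 63.4 and 119 in control, a log2 difference of 1.96 (limma adjusted p = 6.77e-09). Signals were also summed per list over the brightest probe set of each annotated member, with no filter on low signals. The sum of the bile duct and progenitor list, over 12 annotated of 14 members, came mostly from AFP, DLK1 and GPC3. It so does not reflect SPP1 or EPCAM. It ran from 16380 to 19790 in knockdown1, from 17120 to 18520 in knockdown2 and from 16240 to 19660 in control. The sum of the intestinal epithelium list covers all 13 members, of which 5 passed the filter and were tested. It was 1624 to 1917 in knockdown1, 1238 to 1470 in knockdown2 and 2889 to 3447 in control. The brightest member of this list was DPP4, a cell surface peptidase. The sum of the stellate cell and fibroblast list overlapped between the knockdowns, at 890.8 to 1106 in knockdown1 and 843 to 1046 in knockdown2, as did the endothelial list, at 271 to 378 and 347 to 406, and the macrophage and lymphocyte list, at 2806 to 3566 and 3547 to 4408. Their brightest members were ACTA2, LYVE1 and LYZ. In these lists 2 to 6 members lay below the array median on all 9 arrays, and their part in the results was not tested.

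Housekeeping lists had few called genes, and their counts moved with the scaling. Of 33 tested genes of oxidative phosphorylation 5 were lower and 0 higher, with 0 higher at an unadjusted limma p under 0.05, and after quantile normalization 4 were lower and 4 higher. Of 22 tested cytosolic ribosomal proteins 1 was lower and 0 higher, with 4 lower and 0 higher at an unadjusted limma p under 0.05. The number lower ranged from 0 to 11 when 1 array was left out and was 7 after centring on the tested genes.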

How the data were processed

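RNA of 9 HepG2 samples, 3 per group, was measured on Affymetrix arrays from total RNA that was copied with an oligo(dT) primer and labelled with biotin during in vitro transcription, per the labels' protocols. The authors deposited 1 linear intensity per probe set, made with MAS5 per the submitters' processing notes. Its version and scaling target are not given in the sources used here. On the linear scale the deposited intensities had a mean of 100 on every array after trimming 2% at each end, and array medians that differed by up to 1.28-fold.

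Arrays were scaled to the common median of 14.1, a pseudocount of 1.41 was added and log2 was taken. Of 54675 probe sets, 62 were controls, and the platform annotation paired 41091 with 1 gene symbol, 1801 with several and 11721 with none. Of those with 1 symbol, 24565 were kept because they exceeded the median of the array on 3 or more arrays. A gene was its probe set with the highest mean, which gave 13056 genes. All 9 arrays entered 1 fit (limma 3.58.1, R 4.3.3, lmFit and eBayes with a variance trend), with Benjamini-Hochberg adjustment over all genes and a threshold of 0.05. Tested on simulated data, the script recovered the changes it was given.

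Genes were named by a rule: HNF4G, the 14 largest called differences each way with groups that did not overlap and a mean signal of at least 50 in the higher group, and per list its anchors, its 4 largest called differences and 1 called gene against the majority. The text describes part of the 308 genes this gave. The comparison, lists and rule were chosen with earlier results of these data known, and the interferon motif and the printed sequences after the results were seen. Promoter windows are RefSeq's, matched by symbol.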

Additional observations from a re-analysis of the deposited data

How the results depend on the processing

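Alternatives covered scaling, pseudocount, filter, choice of probe set, samples in the fit, the replicate block, the variance trend and leaving out 1 array. The genes higher in knockdown1 numbered 2803 with signals as deposited, 2596 after quantile normalization and 2255 after centring, against 1368. Testing every probe set gave 5877 changed probe sets, 2135 higher and 3742 lower in knockdown1, 1842 changed by at least 2-fold, 7386 changed between knockdown1 and control and 6240 between knockdown2 and control, as more features were tested. Leaving out 1 array gave 2713 to 4174 called genes. The call of CDKN1A between the knockdowns appeared under the 3 other scalings, that of MDM2 under centring, with only the 6 knockdown arrays, with the replicate block and without control replicate 2 or 3, and those of RFC1, ISG15, PARP9 and PERP were lost under the settings named beside them (RFC1 and ISG15 also without the variance trend). Whether the replicate numbers pair the arrays is not settled by these values. Deviations of knockdown1 and knockdown2 arrays with the same number correlated at 0.0607, -0.0232 and 0.0476. The highest correlation between groups was 0.134, for replicate 2 of knockdown1 and of control. In the other knockdown, 4 of 6 arrays correlated best with their own number. With the replicate number as a block 4147 genes were called, including 3471 of the 3473. Of 1254 list medians recomputed, 1216 moved by less than the spread between arrays. Without detection calls, dim signals have an unknown background, and 4127 tested genes had a mean signal under 50.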
